A study of Mus musculus with 10 samples.

Results

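The genes examined were the 6 NMDA receptor subunit genes Grin1, Grin2a, Grin2b, Grin2c, Grin2d and Grin3a, chosen by symbol and all found among the 32531 gene rows of the deposited count files. NMDA receptors are glutamate-gated cation channels that pass calcium when glutamate and a co-agonist are bound and the membrane is depolarised. Every receptor contains the obligatory GluN1 subunit (Grin1) together with GluN2 subunits (Grin2a to Grin2d), which bind glutamate and set channel kinetics, or GluN3 subunits (Grin3a), which bind glycine and lower calcium permeability. In the striatum they carry part of the cortical and thalamic excitation of medium spiny neurons, and in these neurons they act together with dopamine D1 receptor signalling.

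Ribosome-bound RNA was captured from the whole striatum of adult mice carrying the Drd1-EGFP/Rpl10a transgene (line CP73), in which an EGFP-tagged ribosomal protein is made under control of the Drd1 promoter. The line came from FVB/N-Swiss Webster and C57BL/6 stock with at least 9 generations on C57BL/6, and all groups carried it. The 9 pull-downs comprised 3 libraries each from saline self-administration, intravenous cocaine self-administration with short access, and a yoked control, whose exposure the labels do not state. A single input library held total striatal RNA of the same line. Nothing in the labels ties the 3 libraries of a group to different mice, and the p-values therefore cover the library-to-library spread alone, part of which may be technical. Each group was sequenced on its own lane (lane 3 for saline, 1 for cocaine and 2 for yoked), which means that effects of lane and of group cannot be told apart. The input was on lane 5, which no pull-down shared, so its difference from the pull-downs cannot be told apart from lane either.

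Gene counts per pull-down, in units of 1000000, ran from 12.5 to 45.2, against 40.5 in the input, and the 3 saline libraries were the shallowest. Levels are given as CPM, the gene's counts per 1000000 gene counts of the library. The floor of 3 counts corresponded to 0.0663 to 0.239 CPM and covers counting error only. All 9 markers of D1 medium spiny neurons were above the input in each of the 9 pull-downs, and all 8 markers of D2 medium spiny neurons were below it in each. Of 10 astrocyte markers, 9 were below the input in each pull-down, at a median ratio of 0.170. The 6 interneuron markers that reached 1 CPM in the input or on average in the pull-downs had a median ratio of 0.220. For the 9 cortical glutamatergic markers that did so the median ratio was 1.84. Of these 9, 3 were below the input in each pull-down and 0 above it in each.

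All 6 subunit genes were detected in every library. Grin1 lies on chromosome 2 (25291177 to 25319187, GRCm38), Grin2a on chromosome 16 (9567901 to 9996083) and Grin2b on chromosome 6 (135713221 to 136173615). Grin2c lies on chromosome 11 (115249169 to 115267297), Grin2d on chromosome 7 (45831883 to 45871194) and Grin3a on chromosome 4 (49661611 to 49846023). Grin1 overlaps the noncoding Grin1os and the small gene Lrrc26 in the RefSeq annotation. Grin3a overlaps Ppp3r2, Grin2a overlaps Gm19143, and Grin2b overlaps Gm14329, Gm14330 and Gm26653. The strand setting of the counting is not given in the sources used here, so reads of overlapping genes cannot be told apart. Grin1os held 1 to 9 counts in a pull-down and 94 in the input. Ppp3r2 held 0 to 5 counts in a pull-down and 25 in the input. Transcript lengths were not used here, so levels are compared between libraries for 1 gene at a time and not between genes.

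Grin1, which encodes the obligatory subunit, stood at 259, 173 and 274 CPM in saline libraries 1, 2 and 3, at 241, 175 and 228 CPM in cocaine libraries 1, 2 and 3, and at 253, 226 and 129.8 CPM in yoked libraries 1, 2 and 3. The input was at 179 CPM. The groups overlapped, and yoked 3 was the lowest of the 9. That same library had the highest summed level of D1 markers, at 3510 CPM against 2385 to 3101 CPM in the other libraries.

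Grin2b, whose product gives slowly decaying currents, was at 217, 180.2 and 279.6 CPM in saline, 212, 154 and 179 CPM in cocaine and 202, 247 and 179 CPM in yoked libraries, against 216 CPM in the input. Grin2a, whose product gives faster currents and increases in many forebrain regions after birth, was at 29.6, 20.7 and 29.7 CPM in saline, 24.6, 12.95 and 19.96 CPM in cocaine and 26.8, 22.6 and 23.5 CPM in yoked libraries, against 29.8 CPM in the input. For both genes the lowest library was cocaine 2, while the remaining cocaine libraries lay within or close to the range of the other groups. Across the 9 pull-downs the coefficient of variation was 22.04% for Grin1, 22.5% for Grin2a and 18.9% for Grin2b.

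Grin2c, known from cerebellar granule cells and from forebrain astrocytes, was scarce and uneven. It was at 0.704, 1.52 and 0.513 CPM in saline, 0.730, 0.838 and 0.124 CPM in cocaine and 1.50, 2.25 and 0.155 CPM in yoked libraries, from 4 to 98 counts, against 6.15 CPM (249 counts) in the input. The highest library exceeded the lowest 18.1-fold, and the coefficient of variation was 75.8%. In all 3 groups library 3 was the lowest of its group.

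Grin2d, which in the forebrain is known chiefly from interneurons, was at 1.62, 1.20 and 0.855 CPM in saline, 1.28, 0.838 and 1.34 CPM in cocaine and 1.22, 1.06 and 0.575 CPM in yoked libraries, against 1.63 CPM in the input. These values rested on 15 to 47 counts, and the groups overlapped. Grin3a, encoding a glycine-binding subunit that reduces calcium entry, was at 2.85, 3.35 and 3.63 CPM in saline, 3.65, 3.41 and 4.04 CPM in cocaine and 4.84, 4.55 and 6.52 CPM in yoked libraries, against 15.3 CPM in the input. For Grin3a the 3 yoked libraries were above the 6 others, and all 9 pull-downs were far below the input. The Grin3a values rested on 42 to 295 counts in a pull-down. The 95% counting intervals of yoked 1 (4.17 to 5.59 CPM) and yoked 2 (3.93 to 5.22 CPM) overlapped those of some other libraries. Among these were saline 2 (2.42 to 4.53 CPM) and cocaine 3 (3.38 to 4.80 CPM). The interval of yoked 3 (5.80 to 7.31 CPM) lay above both. The share of all genes with yoked above both other groups was not counted. Yoked libraries lay above the cocaine libraries for 3.34% of all genes, and above the saline libraries for 3.3%.

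**Figure D1:**
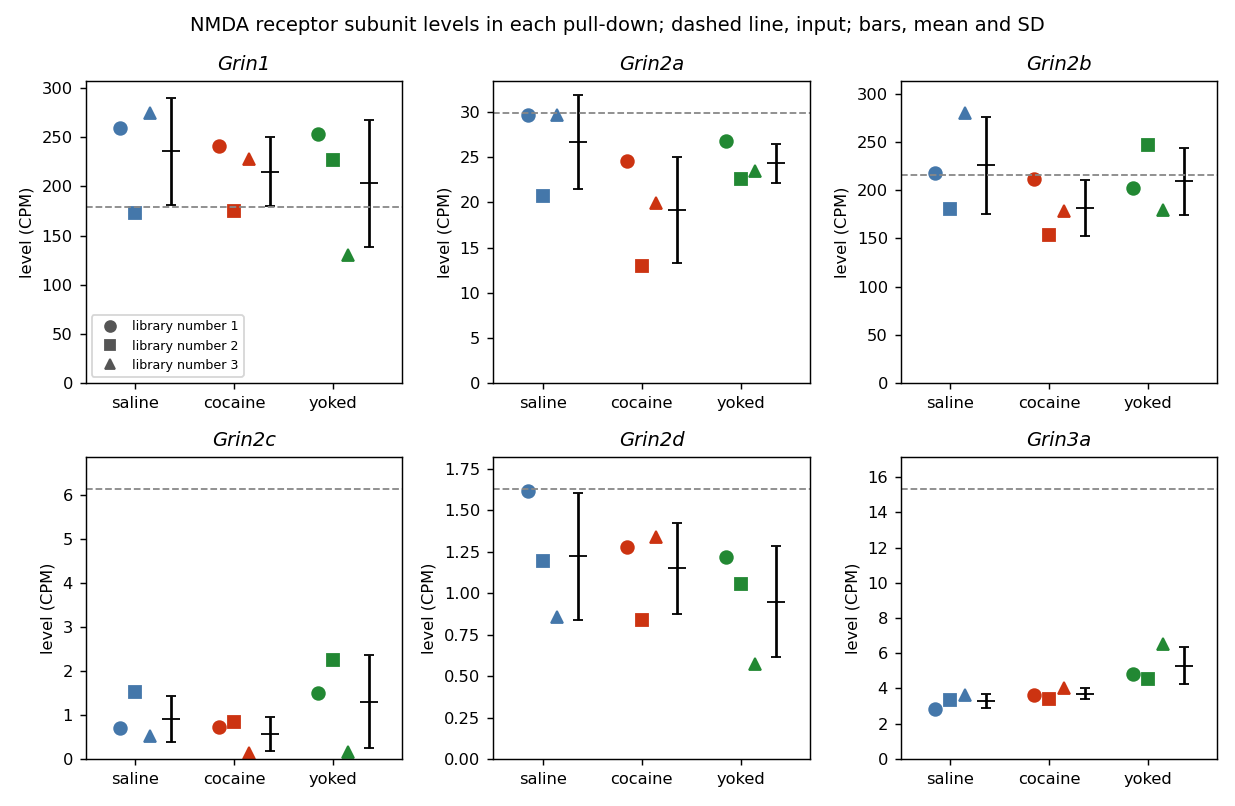
Level of each of the 6 subunit genes in CPM, by group. Each point is 1 library, with its shape giving the library number; the bar beside the points is the mean with its SD (n = 3) and the dashed line is the single input. Grin2c and Grin3a lie below the input line in all 9 pull-downs, and the 3 yoked points of Grin3a (4.55 to 6.52 CPM) lie above the others.

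The pull-downs were then set against the input, as a description with no test, since there was 1 input library. Ratios were computed with 0.5 CPM added to both sides. They join the share of the RNA that lies in tagged cells with how much of it is bound to ribosomes, and these cannot be told apart here, nor can fewer cells of a type and less RNA per cell. A difference of lane also enters the ratios, since no pull-down shared the lane of the input.

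No subunit gene was enriched to the extent of Drd1, whose median ratio was 2.06 (range 1.79 to 2.81). Grin1 had a median ratio of 1.27 over the 9 pull-downs (range 0.725 to 1.53), above the input in 6 of them and below it in saline 2, cocaine 2 and yoked 3. Grin2b was at 0.936 (0.713 to 1.29), above the input in 3 and below it in 6. Grin2a was at 0.792 (0.443 to 0.996) and Grin2d at 0.797 (0.505 to 0.996), below the input in each pull-down. Over 14412 genes with at least 1 CPM in the input or on average in the pull-downs, the median ratio was 0.944 and the middle 50% lay between 0.563 and 1.38. Grin1, Grin2a, Grin2b and Grin2d were all inside that range.

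Grin2c and Grin3a were outside it. Grin2c had a median ratio of 0.185 (0.0940 to 0.414), and 0.119 with no constant added, the larger change that a low level allows. Grin3a had a median ratio of 0.262 (0.212 to 0.444), and 0.238 with no constant added. Of the 14412 genes, 4.33% had a lower median ratio than Grin2c and 8.43% a lower one than Grin3a.

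In all, 4 of the 6 subunit genes were below the input in each of the 9 pull-downs, and 0 of 6 were above it in each. Across all genes these shares were 38.2% below and 28.3% above. With TMM scaling (a trimmed-mean library scaling) over all 10 libraries, which moved the median log2 ratio of all genes from -0.08 to 0.10, the 4 became 2, Grin2c and Grin3a, at median ratios of 0.207 and 0.304. Without the ribosomal RNA row Rn45s, which made up 10.5% to 20.5% of a library's gene counts, they were 3: Grin2c, Grin2d and Grin3a. Thus the position below the input in all 9 pull-downs held for Grin2c and Grin3a under each scaling, whereas for Grin2a and Grin2d it depended on the scaling, and the Grin2b median ratio was 1.07 with TMM. For Grin2a and Grin2d the counting intervals also overlapped that of the input in some libraries.

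**Figure D2:**
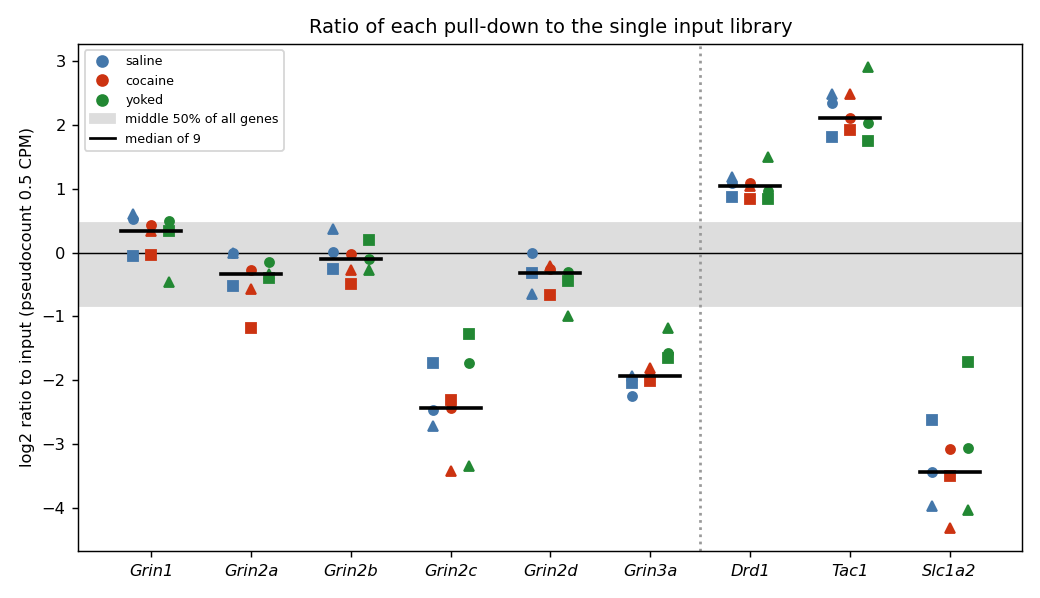
Log2 ratio of each pull-down to the input library for the 6 subunit genes and, right of the dotted line, for the D1 markers Drd1 and Tac1 and the astrocyte gene Slc1a2. Points are libraries, coloured by group and shaped by library number; black bars are medians of 9 and the grey band is the middle 50% of all genes. Grin2c (median -2.43) and Grin3a (median -1.93) lie below the band, between the other subunits and Slc1a2.

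The libraries high in Grin2c were also high in markers of astrocytes and of other cell types outside the D1 neurons. The summed level of the 10 astrocyte markers was 365, 659 and 223 CPM in saline, 484, 419.8 and 228 CPM in cocaine and 524, 1124 and 238 CPM in yoked libraries, against 2621 CPM in the input, and none of the 10 was at 0 in all pull-downs. Ordered from high to low, yoked 2, saline 2 and yoked 1 came first in both measures, and the 3 libraries numbered 3 came last in both. No library differed by more than 2 places between the orders. In the libraries numbered 3, Grin2c was at 0.124 to 0.513 CPM and the markers at 223 to 238 CPM, whereas in the other 6 libraries they were at 0.704 to 2.25 CPM and 365 to 1124 CPM. The order was not particular to astrocytes. The summed oligodendrocyte markers were at 1055, 689.8 and 529.9 CPM in yoked 2, saline 2 and yoked 1 and at 208 to 255 CPM in the libraries numbered 3. The sums for oligodendrocyte precursors, microglia and D2 neurons were likewise highest in yoked 2 and saline 2 and lowest in the libraries numbered 3. In the fits between groups, all 10 astrocyte markers were lower in value in cocaine than in yoked libraries (median log2 fold change -0.56) and all 10 were higher in yoked than in saline libraries (0.63). The 10 oligodendrocyte markers (-0.58 and 0.56) and the 5 precursor markers (-0.99 and 0.79) also had these signs throughout. Grin2c had the same signs, but in yoked against saline its log2 fold change of 0.59 turned to -0.070 without yoked 2. No gene of these lists was called. The part of RNA from any of these cell types in the Grin2c level was not tested.

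Grin3a did not share that order. Yoked 3, among the 3 lowest libraries in astrocyte markers, had its highest level, 6.52 CPM. The summed level of 7 interneuron markers was 26.6 to 39.9 CPM in saline, 30.4 to 38.5 CPM in cocaine and 23.9 to 51.8 CPM in yoked libraries, with yoked 3 the lowest of the 9. In the input this sum was 161 CPM. Markers of cortical glutamatergic neurons summed to 33.3 to 90.3 CPM in saline, 80.8 to 114 CPM in cocaine and 31.1 to 127 CPM in yoked libraries, where yoked 2 was the lowest and yoked 3 the highest of the 9. The input stood at 61.2 CPM for these. Neither marker sum separated the yoked libraries from the rest, as Grin3a did. Gene by gene, however, 6 of 7 interneuron markers were higher in value in yoked than in saline libraries (median log2 fold change 0.35), as were 7 of the 8 cortical markers tested (0.43). None of these was called. Their part in the Grin3a level was not tested.

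**Figure D3:**
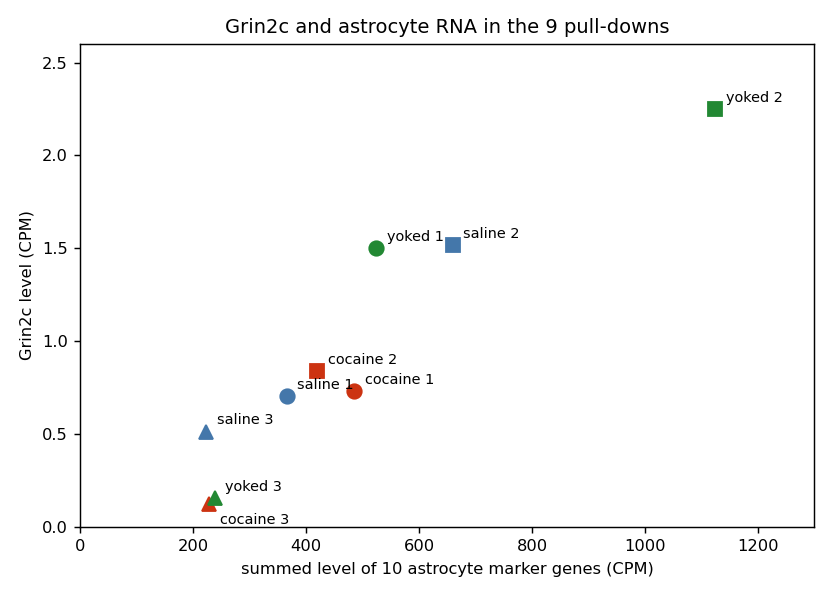
Grin2c level (CPM) against the summed level of 10 astrocyte marker genes (CPM) in the 9 pull-downs, each labelled by group and number. The 3 libraries numbered 3 are lowest on both axes (0.124 to 0.513 CPM and 223 to 238 CPM), and yoked 2 is highest on both (2.25 and 1124 CPM).

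Whether self-administered cocaine was accompanied by another level of NMDA receptor RNA on ribosomes was examined by comparing cocaine with saline. No subunit gene passed. Of the 6 genes, 0 were called at an adjusted p under 0.05 by edgeR (Benjamini-Hochberg over 14680 genes), where 0.0% of all genes were called, and 0 reached an unadjusted p under 0.05, where 2.84% of all genes did. DESeq2 called 1 gene in this comparison, which was not a subunit. Grin2a averaged 19.2 ± 5.87 CPM with cocaine and 26.7 ± 5.20 CPM with saline (SD, n = 3). The log2 fold change was -0.43 with an SE of 0.22 (edgeR, unadjusted p = 0.0687, adjusted p = 0.999). Its 95% interval ran from a ratio of 0.535 to 1.03, and without cocaine 2 the log2 fold change was -0.22. Grin2b averaged 182 ± 29.2 against 226 ± 50.2 CPM, a log2 fold change of -0.27 ± 0.18 (95% interval of the ratio 0.633 to 1.09), which was -0.05 at its smallest, when 1 library was left out.

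For the other subunits the intervals were as wide or wider. Grin1 averaged 215 ± 35.1 in cocaine and 235 ± 54.4 CPM in saline libraries, with a ratio of 0.944 and a 95% interval from 0.674 to 1.32. Grin3a averaged 3.70 ± 0.319 against 3.28 ± 0.396 CPM, with a ratio of 1.17 and an interval from 0.792 to 1.74. For the scarce Grin2c and Grin2d the intervals ran from 0.189 to 2.34 and from 0.492 to 1.95. In none of the 6 genes did the cocaine and saline libraries separate, which they did for 11.5% of all genes (6.38% with cocaine higher and 5.08% with it lower).

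The median log2 fold change of the 6 subunits was -0.18, with 5 of 6 below 0, beside a median of 0.0036 and 49.4% below 0 over all genes. Grin2a, Grin2b and Grin3a are long genes, spanning 428, 460.4 and 184 kb. Of these, Grin3a was above 0, at 0.23. The shorter Grin1, Grin2c and Grin2d (28.0, 18.1 and 39.3 kb) were below 0, at -0.08, -0.59 and -0.03. Over the 1274 genes tested that span at least 150 kb the median log2 fold change was -0.11, with 71.6% below 0, against 0.02 and 47.0% for shorter genes. The part of gene span in the Grin2a and Grin2b values was not tested.

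The comparison of cocaine with the yoked control gave 0 called subunits as well (edgeR, Benjamini-Hochberg; 0.0% of all genes called), and 0 at an unadjusted p under 0.05 (2.58% of all genes). Grin3a averaged 3.70 ± 0.319 in cocaine and 5.30 ± 1.06 CPM in yoked libraries, a log2 fold change of -0.51 ± 0.26 (edgeR unadjusted p = 0.0664, adjusted p = 0.974), with a 95% interval of the ratio from 0.479 to 1.03. The 3 cocaine libraries lay below the 3 yoked libraries, as for 3.34% of all genes (3.42% separated with cocaine higher, 6.76% in either direction). Of the 6 subunits 4 had a log2 fold change below 0, as did 54.5% of all genes. The 4 were the long genes Grin2a, Grin2b and Grin3a and the shorter Grin2c. Among genes spanning at least 150 kb, 74.1% were below 0 (median -0.12), against 52.4% of shorter genes. The part of gene span in these values was not tested. Without yoked 3 the Grin3a log2 fold change was -0.30. Grin2a had a ratio of 0.794 (95% interval 0.575 to 1.10), Grin2b of 0.875 (0.668 to 1.15) and Grin1 of 1.07 (0.766 to 1.50). The Grin1 value turned to -0.12 on the log2 scale without yoked 3, the library with its lowest level. Grin2c and Grin2d had log2 fold changes of -1.18 ± 0.81 and 0.30 ± 0.46.

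In yoked against saline libraries, 0 subunits were called (edgeR, Benjamini-Hochberg; 0.0% of all genes called), and 1, Grin3a, reached an unadjusted p under 0.05, as did 1.84% of all genes. Grin3a averaged 5.30 ± 1.06 CPM in yoked and 3.28 ± 0.396 CPM in saline libraries, a 1.67-fold difference with a 95% interval from 1.13 to 2.47 before adjustment. On the log2 scale this was 0.74 ± 0.26 (SE; edgeR, unadjusted p = 0.0136 and adjusted p = 0.999). All 3 yoked libraries lay above all 3 saline libraries, as for 3.3% of all genes (3.39% separated with yoked lower, 6.69% in either direction). Of the 6 subunits 4 had a log2 fold change below 0, as did 45.0% of all genes. Among genes spanning at least 150 kb, 49.4% were below 0 (median 0.0030), against 44.4% of shorter genes (median 0.03). The part of gene span in these values was not tested. Without yoked 3 the Grin3a log2 fold change was 0.53 (edgeR unadjusted p = 0.0634), and without saline 1 it was 0.62 (unadjusted p = 0.0629). The difference therefore kept its direction when any 1 library was left out, with log2 fold changes of 0.53 to 0.86, but did not pass over all genes.

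The more abundant subunits had yoked to saline ratios of 0.880 for Grin1 (95% interval 0.628 to 1.23), 0.933 for Grin2a (0.675 to 1.29) and 0.949 for Grin2b (0.723 to 1.24). Grin2c and Grin2d had log2 fold changes of 0.59 ± 0.82 and -0.33 ± 0.46. The comparisons share libraries in pairs, so their values are not independent of each other.

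**Figure D4:**
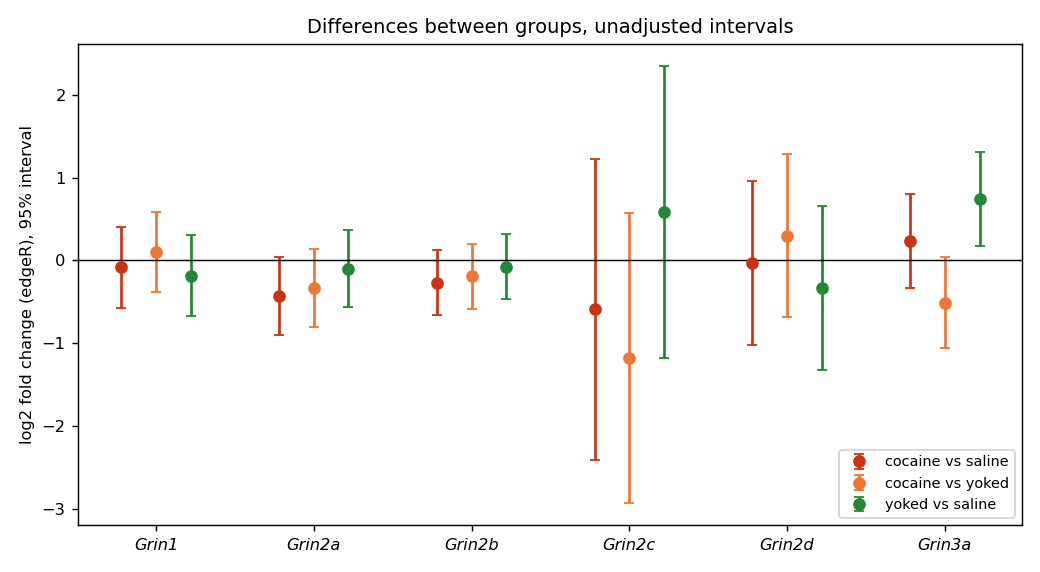
Log2 fold change of each subunit gene in the 3 comparisons (edgeR), with unadjusted 95% intervals. The interval of Grin3a in yoked against saline (0.18 to 1.30) is the single one that lies to 1 side of 0, and none passes adjustment over all genes.

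The balance of subunits was described by count ratios within a library, which need no scaling between libraries. For a ratio of 1 gene to 1 other, transcript length adds the same constant in every library. For the summed Grin2 genes and for shares it does not cancel, and no correction for length was made. Grin2b held 88.9% of the reads of the 4 Grin2 genes in the median pull-down (range 87.2% to 91.3%) and 85.2% in the input (95% Wilson interval 84.5% to 85.8%). Grin2a held 10.2% (7.69% to 11.9%) and 11.8%, and Grin2d 0.526% (0.275% to 0.667%) and 0.643%. The Grin2a shares of saline 1, yoked 1 and yoked 3 lay inside the Wilson interval of the input (11.2% to 12.4%), and the others below it. For Grin2d, saline 1, saline 2, cocaine 1, cocaine 3 and yoked 1 lay inside the input interval (0.505% to 0.817%), and the others below it. Grin2c held 0.306% (0.0621% to 0.824%) in the pull-downs, against 2.42% (2.14% to 2.74%) in the input, and all 9 pull-downs were below that interval. Its share was above that of Grin2d in the input and in saline 2, yoked 1 and yoked 2, equal to it in cocaine 2 and below it in the other 5 pull-downs. These are shares of reads, not of transcripts or of receptors.

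The ratio of Grin2a to Grin2b reads, which is followed as a mark of synapse maturation, was -2.88, -3.12 and -3.23 on the log2 scale in saline, -3.11, -3.57 and -3.16 in cocaine and -2.92, -3.45 and -2.93 in yoked libraries. The input was at -2.86, above all 9 but close to saline 1. Group means were -3.08 ± 0.18, -3.28 ± 0.25 and -3.10 ± 0.31 (SD, n = 3). The groups overlapped and did not differ beyond the spread of libraries (exact permutation test over the 3 groups, p = 0.582, adjusted p = 0.582 over 4 ratios; the smallest possible p is 0.00357).

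The summed Grin2 genes stood to Grin1 at -0.05, 0.23 and 0.18 in saline, -0.01, -0.05 and -0.19 in cocaine and -0.13, 0.27 and 0.65 in yoked libraries, on the log2 scale, and at 0.50 in the input. Yoked 3 was the one pull-down above the input, with 1.57 Grin2 reads per Grin1 read against a median of 0.990. The exact permutation test gave p = 0.254 (adjusted p = 0.507). Without yoked 1 it gave p = 0.0107 (exact, adjusted p = 0.0429), and leaving out any other library gave an exact p of 0.275 to 0.496.

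The ratio of Grin3a to Grin1 was -6.51, -5.69 and -6.24 in saline, -6.05, -5.68 and -5.82 in cocaine and -5.71, -5.64 and -4.31 in yoked libraries, on the log2 scale, and -3.55 in the input. Group means were -6.14 ± 0.42, -5.85 ± 0.18 and -5.22 ± 0.78 (SD, n = 3). Saline 2 reached into the range of the yoked libraries, and the highest value, in yoked 3, joined the highest Grin3a with the lowest Grin1 level. The exact permutation test over the 3 groups gave p = 0.0786 (adjusted p = 0.314). Over the alternatives tried for this ratio, the exact permutation p ran from 0.025 to 0.321. The ratio of Grin2d to Grin2b was -7.55 ± 0.70 with saline, -7.32 ± 0.23 with cocaine and -7.84 ± 0.45 in the yoked control (exact permutation p = 0.518, adjusted p = 0.582).

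**Figure D5:**
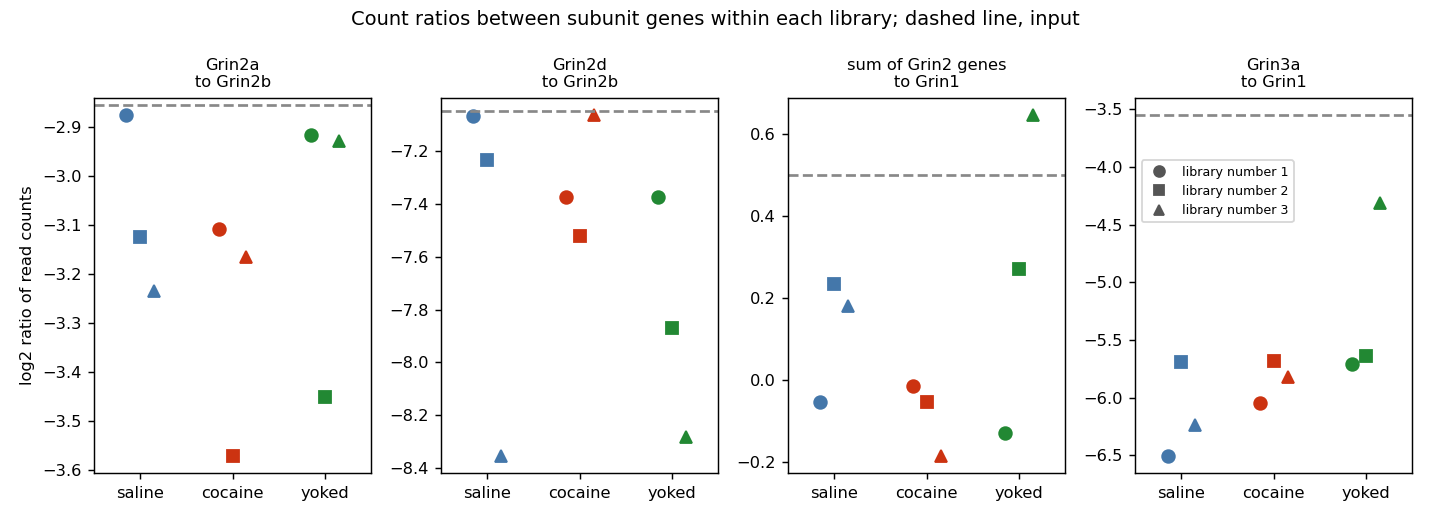
Log2 ratios of read counts between subunit genes within each library, by group, with the input as a dashed line; point shape gives the library number. All 9 pull-downs lie below the input for Grin2a to Grin2b, Grin2d to Grin2b and Grin3a to Grin1, and 8 of 9 for the summed Grin2 genes to Grin1, with yoked 3 above it at 0.65. The gap to the input is small for Grin2a to Grin2b in saline 1 (-2.88 against -2.86). It is also small for Grin2d to Grin2b in saline 1 and cocaine 3 (-7.07 and -7.06 against -7.05).

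The other genes of the NMDA receptor family were Grin3b, encoding the remaining GluN3 subunit, and Grina, an NMDA receptor-associated membrane protein that is not a channel subunit. Grin3b was near the depth limit, at 10 to 48 counts in a pull-down. It was at 1.41, 1.28 and 0.770 CPM in saline, 0.700, 0.329 and 0.528 CPM in cocaine and 1.24, 0.804 and 0.221 CPM in yoked libraries, against 0.740 CPM in the input. The cocaine libraries lay below the saline libraries, as for 5.08% of all genes, and the difference did not pass (log2 fold change -1.08 ± 0.62, edgeR unadjusted p = 0.104, adjusted p = 0.999). Grin3b overlaps Tmem259, so its few reads are uncertain. Grina was above the input in all 9 pull-downs, as were 28.3% of all genes, at a median ratio of 1.51. Its log2 fold changes were -0.04, 0.12 and -0.16 in the 3 comparisons.

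Proteins that bind NMDA receptors or act directly below them were covered by a list of 26 genes, all of which were tested. None was called in any comparison (edgeR, Benjamini-Hochberg), and an unadjusted p under 0.05 was reached by 1 gene when cocaine was compared with saline, by 1 when it was compared with the yoked control and by 0 between the control groups, where 2.84%, 2.58% and 1.84% of all genes did, so that 1 of 26 was near the background. In that order, their median log2 fold changes were -0.07, -0.0052 and -0.07, beside 0.0036, -0.03 and 0.03 over all genes. Against saline, 18 of 26 were lower in cocaine (49.4% of all genes) and 20 of 26 in yoked libraries (45.0%). Against yoked, 13 of 26 were lower in cocaine (54.5%). The comparisons with saline share the saline libraries. On TMM-scaled values the cocaine and saline libraries separated for Apba1, an adaptor in receptor transport (-0.18 ± 0.16), which was lower in value in cocaine. Csnk2a1, a catalytic subunit of casein kinase 2, was separated in the other comparisons, at -0.18 ± 0.13 in cocaine against yoked and 0.18 ± 0.13 in yoked against saline, which share the yoked libraries. On unscaled CPM, the yoked and saline values of Csnk2a1 overlapped.

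Against the input these partners lay somewhat higher than the subunits themselves, with a median ratio of 1.24. Of the 26, 10 were above the input in all 9 pull-downs (28.3% of all genes) and 7 below it in all 9 (38.2%), and with TMM over all 10 libraries these were 12 and 3, beside 37.5% and 31.2% of all genes. Among the highest were Cdk5, a kinase active in medium spiny neurons, at 2.53, and Ptk2b, a tyrosine kinase that acts on NMDA receptors through Src, at 1.99. The lowest were the receptor kinase Ephb2 at 0.575, and the scaffolds Dlg1 and Dlg2 at 0.708 and 0.715.

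Co-agonist handling was represented by 8 genes, of which 6 were tested and 0 called in any comparison (edgeR, Benjamini-Hochberg), with 0 at an unadjusted p under 0.05. Dao and Slc6a5 did not pass the filter on low counts. The lowest ratios to the input were those of Slc6a9, the glycine transporter GlyT1, at 0.234, of Slc7a10, a transporter of small neutral amino acids including D-serine, at 0.440, and of Gldc, of the glycine cleavage system, at 0.446. These 3 of the 6 were below the input in all 9 pull-downs under each scaling. Of all genes, 38.2% were so, 31.2% with TMM over all 10 libraries and 37.1% without the Rn45s row. Srr, serine racemase, was at 0.882, Slc1a4 at 0.860 and Shmt2, a mitochondrial serine hydroxymethyltransferase, at 1.50.

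Over the 9 pull-downs, the genes whose levels ran most like those of the main subunits were named by Pearson r of the log2 CPM among the 11894 genes averaging 50 or more counts. This is a description over 9 libraries that share groups and lanes, and 51, 28 and 38 genes reached an r of 0.9 with Grin1, Grin2a and Grin2b. For Grin1 the first 3 were Gdf1, Kcnh4 and Zfp341 (r = 0.970, 0.970 and 0.967). For Grin2a they were Cnnm3, Slc16a6 and Dnajc18 (0.974, 0.962 and 0.958), and for Grin2b they were Tanc2, Frem2 and Elmsan1 (0.967, 0.956 and 0.956).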

How the data were processed

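The deposited files hold whole-number read counts per gene symbol, 1 library per file. According to the submitters' processing notes the authors used STAR 2.0.0e, HTSeq and mm10; annotation, strand setting and counting mode were not stated there. The 6 rows naming no gene stayed out of all totals and fits. No-feature reads made up 12.3% to 16.1% of unique alignments in pull-downs and 27.6% in the input.

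Groups were compared with edgeR 4.0.16 in R 4.3.3 (robust quasi-likelihood F test, TMM, filterByExpr) over all 9 pull-downs with group as the only term. The call rule was an adjusted p (Benjamini-Hochberg, 14680 genes) under 0.05. All 6 subunit genes passed the filter, which did not use the input. SEs were derived from the fold change and its F statistic, and intervals are unadjusted, at 95%. Alternatives were DESeq2 1.42.0, total counts, no filter, the replicate number as a block, only the groups compared, and leaving out each library. Count ratios were tested by exact permutation of the 9 libraries in 3 groups (1680 arrangements, sum of squares between groups). The common biological coefficient of variation was 23.7%. No pair of replicates agreed within sampling noise (chi-square over its degrees of freedom 15.3 to 169).

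Gene positions are those of RefSeq on GRCm38.p6, the assembly that mm10 names. Genes named beside the 6 subunits were Grin3b, Grina and markers for context. From the lists of partners and co-agonist genes they were called genes, up to 3 per comparison whose groups did not overlap, and the 3 highest and lowest ratios to the input. Members and lists were chosen with earlier results of these data known. Some genes that this rule names are not reported here.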

Additional observations from a re-analysis of the deposited data

How the results depend on the processing

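No subunit gene was called under any alternative. Over all genes, where edgeR called 0 in each comparison, DESeq2 called 1 in cocaine against saline and 0 in the others, a fit to only the groups compared called 1 in cocaine against saline, and leaving out 1 library gave 0 to 1 in cocaine against saline and in yoked against saline. The labels give no pairing by replicate number. In deviations from group means, libraries numbered 2 correlated with each other at 0.13 to 0.23 and those numbered 3 at 0.23 to 0.25, while those numbered 1 did so at -0.02 to 0.05 and number 2 against number 3 at -0.25 to -0.14. Not every pair passed 0.1, so the numbers were not taken to pair the libraries. The main fits and permutation tests thus leave the likeness among libraries numbered 2, and among those numbered 3, out of account. With the replicate number as a block, edgeR called 1 gene in each comparison, no subunit among them, and the Grin2d value in cocaine against saline turned to 0.018. Some log2 fold changes changed sign when 1 library was left out. In cocaine against saline the ranges were -0.27 to 0.076 for Grin1, -0.22 to 0.22 for Grin2d and -0.20 to 0.094 for Grina. In cocaine against yoked they were -0.12 to 0.27 for Grin1, -0.94 to 0.029 for Grin3b and -0.44 to 0.35 for the median of the co-agonist genes. In yoked against saline they were -0.37 to 0.037 for Grin1, -0.25 to 0.018 for Grin2a, -0.22 to 0.14 for Grin2b and -0.070 to 1.123 for Grin2c. The exact p for the summed Grin2 genes to Grin1 ran from 0.0107 to 0.496 when 1 library was left out. With TMM over all 10 libraries, 2 subunits in place of 4 were below the input in all pull-downs, and the Grin2b median log2 ratio was 0.093. With 2 CPM in place of 0.5 CPM added, the Grin2c median log2 ratio was -1.58 in place of -2.43. Causes were not tested. Correction of subunit shares for transcript length was not run. Grin2c, Grin2d and Grin3b rested on under 100 counts in each pull-down, which limits their precision.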
